A study of Mus musculus with 18 samples.

Results

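The values below describe 10 genes used as markers of neutrophils, S100a8, S100a9, Csf3r, Cxcr2, Itgam, Ngp, Camp, Ltf, Mmp8 and Mmp9, in mouse liver after IL-1β or saline. They were taken by gene symbol from the 3 deposited gene count tables and are 10 of the 21018 genes that occur in at least 1 table. The genes were chosen with earlier results of these data known. All 10 have a row in the V4 and TruSeq tables, and 9 have one in the Pico table, which has no row for Camp. The livers came from 6 male C57/B6J mice of 12 weeks, of which 3 received IL-1β at 20 µg/kg (mice I9579, I9582 and I9583) and 3 received saline (mice U9574, U9575 and U9576), 4 h before collection. The study's methods state that the livers were perfused with cold buffer. The RNA of each mouse was split over 3 library kits, which gave 18 libraries, 1 per mouse and kit. Pico is a stranded kit for total RNA from a very small amount of RNA, V4 is an unstranded poly(A) kit for a very small amount, and TruSeq selects poly(A) RNA, keeps the strand and takes far more RNA. The whole liver was extracted, so a cell type appears only through its share of the RNA, and a smaller number of cells cannot be told apart from less RNA per cell.

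Neutrophils are short-lived white blood cells that are made in the bone marrow and reach a tissue through the blood. They answer chemokines through Cxcr2, the growth factor G-CSF through Csf3r, and adhere to the vessel wall through integrins such as the one that Itgam helps to form. They store proteins in granules made at successive stages of their growth. The primary granules (Mpo, Elane) come first, the secondary granules (Ltf, Ngp, Camp, Mmp8) next and the gelatinase granules (Mmp9) last, and transcription of many granule genes falls as the cell matures. S100a8 and S100a9 form calprotectin, an abundant protein of the neutrophil cytosol. Itgam and S100a8 are also transcribed by monocytes, and Mmp9 by several other cell types, so no single gene of the 10 is a measure of neutrophils alone.

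The gene counts of a library summed to 12348864 to 12858237 in TruSeq, 12013453 to 12352473 in V4 and 4024632 to 4134070 in Pico. The authors had resampled the reads to a like depth within each kit, so Pico values rest on fewer counts than those of the other kits and low genes are less precise there. The level of a gene is given below as raw counts or as CPM, the usual scaling of counts by the library total. The liver origin of the libraries was visible in Alb, the hepatocyte gene for serum albumin, with 570133 to 1062281 counts in a TruSeq library. The amount of RNA also differed between kits, and TruSeq had another read length and sequencer than Pico and V4. These differences cannot be told apart from the kit.

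The 10 genes lie on 6 chromosomes, and on the mm9 build (GENCODE vM1) no other annotated gene shares exonic bases with them. S100a8 (chromosome 3, 90472993 to 90473956, plus strand) and S100a9 (chromosome 3, 90496554 to 90499643, minus strand) are neighbours. Camp (109749889 to 109751970, minus strand), Ngp (110322254 to 110325514, plus strand), Ltf (110921796 to 110945270, plus strand) and Mmp8 (7558429 to 7568486, plus strand) are all on chromosome 9. Csf3r is on chromosome 4 (125701794 to 125722219), Cxcr2 on chromosome 1 (74200563 to 74207812), Itgam on chromosome 7 (135206154 to 135271674) and Mmp9 on chromosome 2 (164766280 to 164781350), each on the plus strand. Itgam has the longest exonic sequence of the 10, with 6377 bases, S100a9 has 522 bases and S100a8 is shorter still. Counts rise with length, so the order of levels between genes is given per kilobase of exon. Counts, CPM and shares of counts are not corrected for length.

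Since 9 of the 10 genes rose in at least 1 kit, the sequence before their start sites was read from RefSeq (GRCm38.p6), where 9 of 10 had an entry and Mmp9 had none. PU.1 and the C/EBP family are the transcription factors best known for neutrophil genes. The letters GAGGAAG, a core of PU.1 sites, were searched on both strands of the 250 bases before the start. They were present in 4 of 9 genes, against 10.61% of the 32851 RefSeq promoters searched over the same bases. The C/EBP letters TTNCGNAA were in 0 of 9, against 2.04% of all promoters, and the TATA letters TATAAA, added after the sequences were seen, in 1 of 9, against 12.37%. These are matches of letters and say nothing of binding. The 4 promoters that hold GAGGAAG are shown 5′ to 3′ on the strand of the gene, each as the 250 bases before the start, with the match (or its reverse complement) and the TATA letters in capitals.
Csf3r, chr4:126024409-126024658, plus strand: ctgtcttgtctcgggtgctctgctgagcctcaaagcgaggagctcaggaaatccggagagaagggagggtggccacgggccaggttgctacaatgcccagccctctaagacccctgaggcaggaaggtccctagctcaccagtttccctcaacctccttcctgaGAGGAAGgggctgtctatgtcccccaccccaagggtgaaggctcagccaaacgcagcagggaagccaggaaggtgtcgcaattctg
Itgam, chr7:128062390-128062639, plus strand: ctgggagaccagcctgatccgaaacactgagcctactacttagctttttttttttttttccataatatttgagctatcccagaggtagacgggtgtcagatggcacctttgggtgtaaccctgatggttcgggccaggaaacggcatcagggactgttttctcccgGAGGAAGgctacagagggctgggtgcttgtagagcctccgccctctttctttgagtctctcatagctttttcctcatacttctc
Mmp8, chr9:7558179-7558428, plus strand: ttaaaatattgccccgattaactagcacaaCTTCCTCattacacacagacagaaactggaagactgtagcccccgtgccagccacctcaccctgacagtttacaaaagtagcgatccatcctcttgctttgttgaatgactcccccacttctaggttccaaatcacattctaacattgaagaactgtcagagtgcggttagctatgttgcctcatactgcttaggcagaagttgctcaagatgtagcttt
S100a8, chr3:90668821-90669070, plus strand: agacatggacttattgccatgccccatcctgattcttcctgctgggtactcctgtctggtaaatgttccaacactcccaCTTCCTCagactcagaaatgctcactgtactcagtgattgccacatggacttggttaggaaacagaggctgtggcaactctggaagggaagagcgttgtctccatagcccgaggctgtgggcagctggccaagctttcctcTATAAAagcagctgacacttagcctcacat
The match starts 86 bases before the start in Csf3r and 84 bases before it in Itgam, both on the strand of the gene. In Mmp8 and S100a8 it is on the opposite strand and starts 220 and 171 bases before the start. S100a8 also carries TATAAA from 30 to 25 bases before the start.

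Neutrophil genes were higher in the livers of IL-1β mice than in those of saline mice with each kit. With limma-voom and Benjamini-Hochberg adjustment over all genes of the kit, 9 of 10 genes rose in TruSeq, 7 of 10 in V4 and 9 of 9 in Pico at an adjusted p of at most 0.05, and none fell. Over all genes tested, 12.3% of 19424 rose in TruSeq, 3.6% of 18051 in V4 and 6.78% of 18108 in Pico. Falls were called for 4232, 1337 and 1951 of these genes in the same order. The median log2 fold change of the neutrophil genes was 3.29 in TruSeq, 3.78 in V4 and 4.21 in Pico, against −0.17, −0.22 and −0.12 over all genes tested. Every IL-1β library lay above every saline library in raw counts for 8 of 10 genes in TruSeq, 8 of 10 in V4 and 9 of 9 in Pico, a pattern that 14.5%, 8.71% and 11.0% of all genes showed. The genes whose groups overlapped were Csf3r and Mmp9 in V4 and Camp and Ltf in TruSeq. The library totals were used for scaling, and TMM factors shifted the median of all genes by 0.16 (TruSeq), 0.17 (V4) and 0.13 (Pico) on the log2 scale, with every neutrophil gene higher after IL-1β under both.

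**Figure D1:**
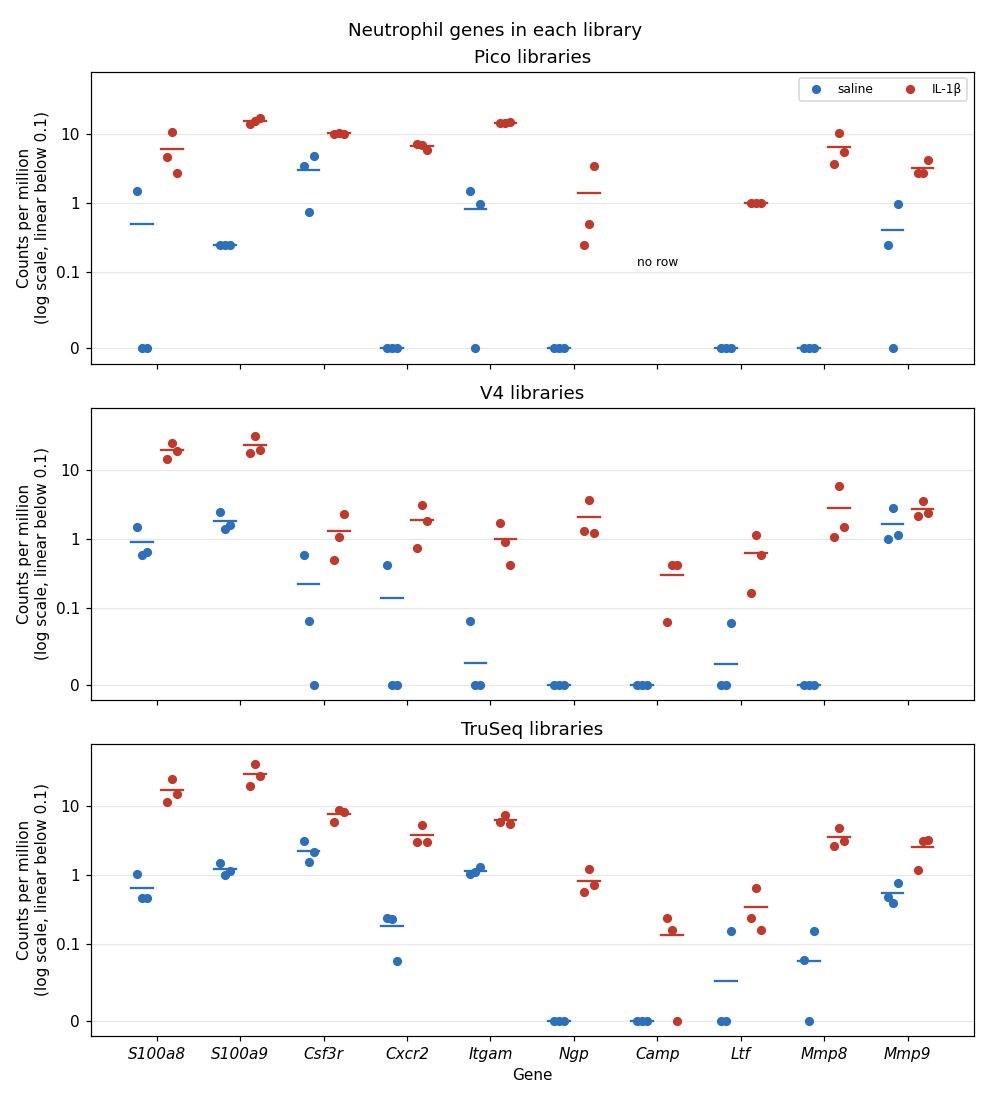
Level (CPM) of each neutrophil gene in each library, on an axis that is logarithmic above 0.1 and linear below, with 1 panel per kit, saline libraries in blue, IL-1β libraries in red and the mean of 3 libraries as a line. S100a8 and S100a9 had the highest levels after IL-1β in V4 and TruSeq, Ngp was at 0 in every saline library of every kit, and Mmp9 in V4 showed overlapping groups.

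S100a8 and S100a9, the calprotectin chains, gave the most counts of the 10 genes in TruSeq and V4. In TruSeq, S100a9 had 241, 514 and 340 counts in the IL-1β mice and 19, 13 and 15 in the saline mice. In V4 it had 217, 383 and 238 counts against 30, 17 and 20, and in Pico 57, 62 and 69 against 1, 1 and 1. The groups were far apart with each kit, and the saline livers held a low level that was seen in every library. The log2 fold change of S100a9 was 4.49 ± 0.47 (SE, n = 3 mice per group) in TruSeq, 3.62 ± 0.52 in V4 and 5.42 ± 0.58 in Pico. The limma-voom adjusted p was 0.000107, 0.00165 and 6.02e-06.

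S100a8 had 145, 312 and 186 counts in the IL-1β mice and 13, 6 and 6 in the saline mice in TruSeq. In V4 it had 175, 301 and 228 against 18, 7 and 8, and in Pico 19, 43 and 11 against 6, 0 and 0. The groups did not overlap, but the gap was small in Pico, where mouse I9583 with 11 counts came near the saline mouse U9574 with 6. S100a8 rose by a log2 fold change of 4.66 ± 0.57 in TruSeq, 4.45 ± 0.63 in V4 and 4.21 ± 0.89 in Pico, with limma-voom adjusted p of 0.000258, 0.00153 and 0.00309. In Pico the call was lost without IL-1β mouse I9582 (adjusted p 0.0542), saline mouse U9575 (0.0646) or saline mouse U9576 (0.0749).

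The balance of both chains differed between kits as well as between mice. Per kilobase of exon, the ratio of S100a9 to S100a8 in the IL-1β libraries was 1.24 to 1.37 in TruSeq and 0.784 to 0.956 in V4, and it ran from 1.08 to 4.71 in Pico. In the saline libraries it was 1.10 to 1.88 in TruSeq and 1.25 to 1.88 in V4, and in Pico S100a8 was above 0 in 1 saline library only. V4 saline libraries were thus all above V4 IL-1β libraries, while the groups overlapped in TruSeq. These saline ratios rest on 6 to 30 counts a gene, and the difference was not tested.

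Among the receptors, Cxcr2, which binds the chemokines Cxcl1, Cxcl2 and Cxcl5, had 37, 66 and 37 counts in the IL-1β mice and 3, 3 and 1 in the saline mice in TruSeq. In Pico it had 29, 28 and 24 counts against 0 in every saline library. In V4 it had 9, 38 and 22 against 5, 0 and 0. It was thus almost absent from saline liver with each kit. In Pico its IL-1β level was 27.5-fold higher, taking 3 counts over the saline group as the floor and the IL-1β counts as exact. The fold from summed counts was 20.6 (95% interval 9.74 to 52.2) in TruSeq and 13.9 (5.66 to 44.0) in V4, where the intervals here and below are exact binomial ones that cover counting error only. The log2 fold change was 4.15 ± 0.52 in TruSeq (limma-voom adjusted p 0.000278) and 4.18 ± 0.997 in V4 (0.0219), and 5.80 ± 0.58 in Pico, a fitted value that depends on the prior count (adjusted p 3.23e-06). In V4 the call was lost without IL-1β mouse I9582 (adjusted p 0.0922) or I9583 (0.0820), without saline mouse U9575 (0.129) or U9576 (0.105), and with edgeR (0.0538).

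Csf3r, the receptor for G-CSF, had the highest saline level per kilobase of exon and the smallest fitted change of the 3 receptor genes with each kit. In TruSeq it had 74, 109 and 103 counts in the IL-1β mice and 39, 20 and 28 in the saline mice. In Pico it had 41, 42 and 41 against 14, 3 and 20, and in V4 only 6, 13 and 28 against 7, 1 and 0. The groups were apart in TruSeq and Pico and overlapped in V4. Its log2 fold change was 1.78 ± 0.28 in TruSeq (limma-voom adjusted p 0.000949) and 2.07 ± 0.54 in Pico (0.0134). In V4 it was 2.93 ± 1.04, which did not pass (0.101), though it did in the fit of all 18 libraries (0.0174). The Pico call was lost without any 1 of the IL-1β mice I9579, I9582 and I9583 (adjusted p 0.0607, 0.0751 and 0.0591), without saline mouse U9574 (0.0543), and in the fit of all 18 libraries (0.0703).

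Itgam encodes the alpha chain of the integrin Mac-1, which neutrophils share with monocytes and some macrophages. It had 74, 93 and 69 counts in the IL-1β mice and 13, 14 and 17 in the saline mice in TruSeq. In Pico it had 58, 58 and 61 against 6, 0 and 4, and in V4 21, 11 and 5 against 1, 0 and 0. The groups did not overlap with any kit. The log2 fold change was 2.42 ± 0.26 in TruSeq (limma-voom adjusted p 0.000112), 4.63 ± 0.72 in Pico (0.000228) and 3.95 ± 0.83 in V4 (0.0128). The V4 saline group held 1 count in all, so its fold of 37.2 from summed counts has an interval of 6.27 to 1507. The V4 call was lost without IL-1β mouse I9579 (adjusted p 0.0660) or I9582 (0.0550) and without saline mouse U9575 (0.0728) or U9576 (0.0502). Itgb2, the beta chain that pairs with Itgam, did not pass with any kit by limma-voom, edgeR or DESeq2. In TruSeq its 46, 67 and 54 counts in the IL-1β mice overlapped the 69, 63 and 52 counts of the saline mice (log2 fold change −0.10 ± 0.21, or 0.06 with TMM factors, limma-voom adjusted p 0.734).

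The secondary granule genes were close to absent from saline liver. Ngp, a cathelicidin-like granule protein, had 0 counts in all 9 saline libraries of the 3 kits. In the IL-1β mice it had 16, 44 and 15 counts in V4, 7, 15 and 9 in TruSeq and 1, 2 and 14 in Pico. Every IL-1β library held the transcript, and in Pico 14 of the 17 counts came from mouse I9583. Against a floor of 3 counts over the saline group, the level was 25.1-fold higher in V4, 10.6-fold higher in TruSeq and 5.77-fold higher in Pico. Ngp passed with limma-voom in V4 (adjusted p 0.000819), TruSeq (0.000189) and Pico (0.0300). The Pico call was lost without IL-1β mouse I9582 (0.0972) or I9583 (0.175) and without saline mouse U9574 (0.117), U9575 (0.101) or U9576 (0.113).

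Camp, the precursor of the antimicrobial peptide cathelicidin, had 1, 5 and 5 counts in the IL-1β mice in V4 and 3, 2 and 0 in TruSeq, with 0 in every saline library of both kits. It did not pass with limma-voom in V4 (adjusted p 0.0523) or TruSeq (0.116). Without IL-1β mouse I9583, the mouse at 0 in TruSeq, the adjusted p there was 0.0113. Camp also passed in V4 with TMM factors (0.0467) and in both kits in the fit of all 18 libraries (0.00161 in V4 and 0.0227 in TruSeq). With at most 5 counts in a library, the depth sets what can be said of this gene.

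Ltf encodes lactoferrin, an iron-binding protein of the same granules. In the IL-1β mice it had 3, 8 and 2 counts in TruSeq, 2, 14 and 7 in V4 and 4, 4 and 4 in Pico. The saline libraries held 0, 0 and 2 in TruSeq, 0, 0 and 1 in V4 and 0 in each of Pico, so the groups met at 2 counts in TruSeq. Against the floor of 3 counts the level was 4.07-fold higher in Pico. The fold from summed counts was 23.1 (3.75 to 952) in V4 and 6.70 (1.52 to 61.1) in TruSeq. Ltf passed with limma-voom in TruSeq (adjusted p 0.0365), V4 (0.0487) and Pico (0.00548). It did not pass with edgeR in any kit (0.0713, 0.150 and 0.0600 in the same order) nor with DESeq2 in V4 (0.0951) or TruSeq (0.118), and DESeq2 gave no adjusted p in Pico. Thinned to the Pico depth, it did not pass in V4 (0.126) or TruSeq (0.430). In V4 the call was lost without IL-1β mouse I9582 (0.189) or I9583 (0.151) and without saline mouse U9574 (0.164), U9575 (0.168) or U9576 (0.0502). In TruSeq it was lost without IL-1β mouse I9579 (0.0815) or I9582 (0.134) and without saline mouse U9574 (0.171) or U9575 (0.161).

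Mmp8 and Mmp9 are matrix metalloproteinases of the granules. Mmp8, neutrophil collagenase, had 33, 60 and 39 counts in the IL-1β mice and 1, 0 and 2 in the saline mice in TruSeq. In V4 it had 13, 72 and 18 counts and in Pico 15, 42 and 22, with 0 in every saline library of both. Mouse I9582 was the highest with each kit. Against the floor of 3 counts the level was 34.5-fold higher in V4 and 26.8-fold higher in Pico. The fold from summed counts was 45.3 (15.2 to 223) in TruSeq. The limma-voom adjusted p was 0.000182 in TruSeq, 0.00151 in V4 and 1.77e-05 in Pico.

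Mmp9, gelatinase B, passed in Pico and TruSeq and had overlapping groups in V4. In Pico it had 11, 11 and 17 counts in the IL-1β mice and 1, 0 and 4 in the saline mice, and in TruSeq 15, 39 and 40 against 6, 5 and 10. In V4 it had 26, 43 and 29 against 12, 34 and 14, where the saline mouse U9575 exceeded the IL-1β mice I9579 and I9583. The log2 fold change was 3.17 ± 0.77 in Pico (limma-voom adjusted p 0.00784), 2.06 ± 0.52 in TruSeq (0.0130) and 0.82 ± 0.60 in V4, which did not pass (0.460). The 34 counts of the V4 library of mouse U9575 stand beside 5 in its TruSeq and 0 in its Pico library. Without that mouse the V4 value was 1.28 (adjusted p 0.338). The Pico call was lost without IL-1β mouse I9583 (0.0575), saline mouse U9574 (0.0581) or saline mouse U9575 (0.0652), and the TruSeq call without IL-1β mouse I9582 (0.0516) or saline mouse U9574 (0.0796), U9575 (0.0757) or U9576 (0.0526).

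**Figure D2:**
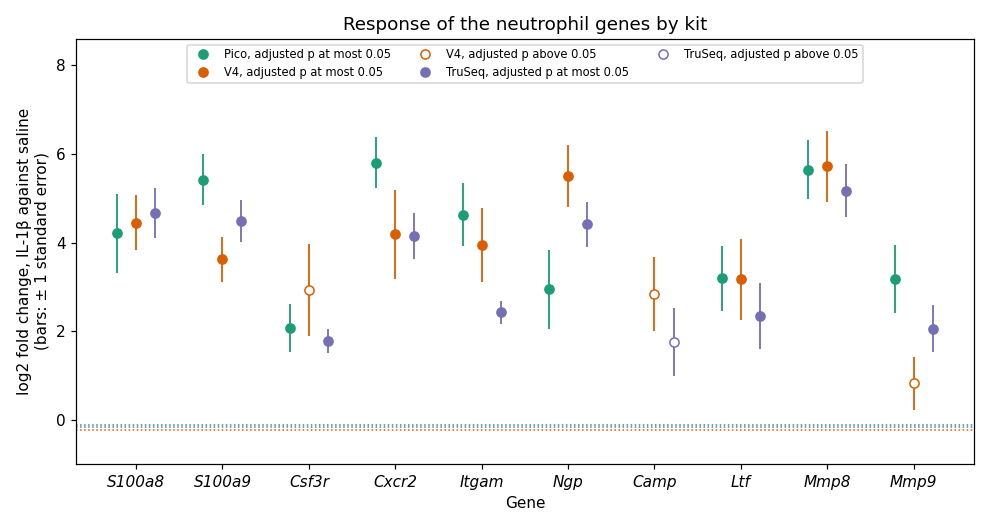
The log2 fold change of IL-1β against saline for each neutrophil gene and kit, with 1 standard error as bars, filled points at an adjusted p of at most 0.05 (limma-voom), open points above it, and dotted lines at the median of all genes of each kit. Every point is above 0, and the open points are Csf3r, Camp and Mmp9 in V4 and Camp in TruSeq.

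Whether a kit gave a larger response than another was tested by the interaction of kit and treatment over 12 libraries. No gene passed in any pair, neutrophil or other: 0.0% of 17207 genes for Pico and TruSeq, 0.0% of 17147 for V4 and TruSeq and 0.0% of 16395 for Pico and V4 with limma-voom. For the neutrophil genes, edgeR, DESeq2 and the paired fit, which takes each mouse as a replicate block, called 0 in each pair. DESeq2 gave an adjusted p for 9 of 9 genes for Pico and TruSeq, 8 of 10 for V4 and TruSeq and only 1 of 9 for Pico and V4, so the other genes could not be called by it. At an unadjusted p under 0.05, limma-voom held 2 of 9 genes for Pico and TruSeq, 2 of 9 for Pico and V4 and 0 of 10 for V4 and TruSeq. edgeR and DESeq2 each held 2, 1 and 1 in the same order, and the replicate block 2, 1 and 0. The difference in log2 fold change was 2.21 for Itgam (95% interval 0.66 to 3.76) and 1.66 for Cxcr2 (0.07 to 3.24), larger in Pico than in TruSeq. It was 2.35 for Mmp9 (0.25 to 4.44) and 1.80 for S100a9 (0.07 to 3.54), larger in Pico than in V4. None passed after adjustment, where the smallest adjusted p of limma-voom was 0.848. In the paired fit the interval of Mmp9 included 0 (2.22, −0.15 to 4.58). Those of Itgam (0.30 to 3.47), Cxcr2 (0.002 to 3.24) and S100a9 (0.18 to 3.37) stayed above 0 there. The remaining intervals of the unpaired fit included 0 and spanned up to 5.23 log2 units (Ltf, V4 and TruSeq, −1.78 to 3.44). The span was 5.03 for S100a8 (Pico and TruSeq) and 5.07 for Csf3r (Pico and V4). Responses that differ between kits by several fold could thus go undetected, and not only for the lowest genes.

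Added over the neutrophil genes, the levels give 1 value per library. In the IL-1β mice I9579, I9582 and I9583 the sum was 50.9, 98.6 and 66.5 CPM in TruSeq, 39.9, 76.6 and 49.4 in V4 and 58.1, 72.6 and 65.1 in Pico. In the saline mice U9574, U9575 and U9576 it was 7.43, 4.77 and 6.30 CPM in TruSeq, 6.08, 4.88 and 3.48 in V4 and 6.86, 0.971 and 7.01 in Pico. The IL-1β mice kept 1 order with every kit, with I9582 highest, I9583 next and I9579 lowest, while the order of the saline mice changed from kit to kit. By single genes, mouse I9582 was highest for 8 of 10 in TruSeq, for 7 of the 9 without a tie in V4, and for 3 of the 8 without a tie in Pico, where I9583 was highest for 4. The libraries of a mouse share its RNA, so the kits repeat the measurement and not the mouse.

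**Figure D3:**
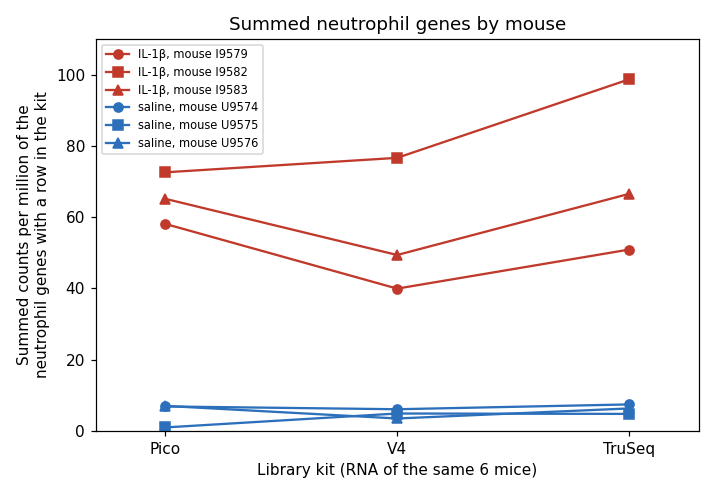
Summed CPM of the neutrophil genes with a row in the kit (9 in Pico, 10 in V4 and TruSeq), with a line per mouse, IL-1β mice in red and saline mice in blue. The IL-1β mice lie between 39.9 and 98.6 and the saline mice between 0.971 and 7.43, with mouse I9582 highest in each kit.

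The kits divided these counts differently among the genes. S100a8 and S100a9 made up 35.1% and 41.8% of the neutrophil gene counts of the IL-1β libraries in V4, 24.04% and 40.9% in TruSeq and 9.24% and 23.8% in Pico. Itgam, the longest transcript, made up 22.4% in Pico, 8.82% in TruSeq and 1.85% in V4. Csf3r followed the same order with 15.7%, 10.7% and 2.34%.

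**Figure D4:**
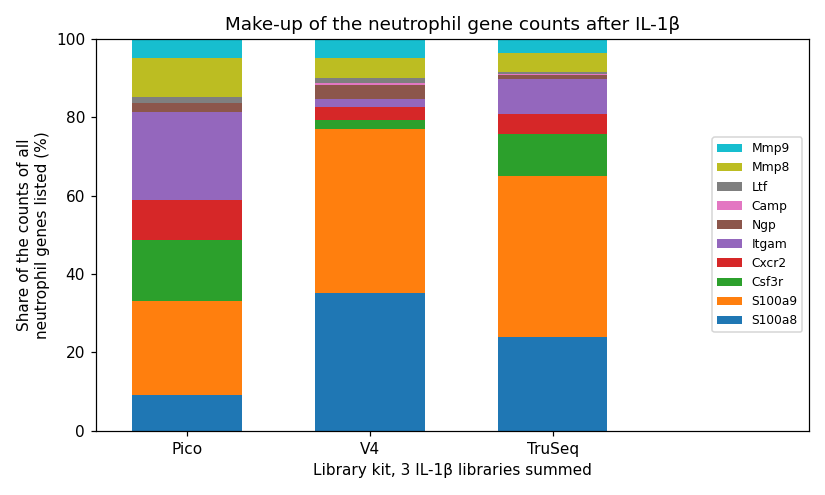
Share of each gene in the counts of all neutrophil genes, with the 3 IL-1β libraries of a kit summed (2675 counts in TruSeq, 2005 in V4 and 790 in Pico). S100a8 and S100a9 fill most of the bar in V4 and TruSeq, and Itgam and Csf3r most of the middle of the Pico bar.

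Per kilobase of exon, both S100 genes stood above the other genes after IL-1β with each kit. S100a9 was at 56.5 ± 21.6 CPM per kilobase (SD, n = 3) in TruSeq and 29.7 ± 2.88 in Pico, and S100a8 was highest in V4 at 49.5 ± 13.5. The next gene was Csf3r in TruSeq at 1.86 ± 0.37, Ngp in V4 at 1.70 ± 1.12 and Mmp8 in Pico at 2.66 ± 1.42. The lowest were Ltf in TruSeq at 0.128 ± 0.095 and in Pico at 0.361 ± 0.001, and Itgam in V4 at 0.160 ± 0.104. S100a8 and S100a9 overlapped in their ranges over the 3 mice with each kit, and the step from them to the next gene was free of overlap with each kit. Of all neighbours in the order, 7 of 9 overlapped in TruSeq, 8 of 9 in V4 and 5 of 8 in Pico.

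The genes most like S100a8 across the 18 libraries, by Pearson's r of log2(CPM + 1) centred by kit over the 8960 genes that averaged 20 or more counts with each kit, were Tnfrsf1a (0.968), Bzw2 (0.964), Plscr1 (0.961), Serpina3f (0.961) and 3110043O21Rik (0.959). S100a8 itself averaged fewer than 20 counts in Pico and was kept as the gene of reference. Of the other neutrophil genes only S100a9 reached that average with each kit, so the rest were not ranked. S100a9, at 0.941, ranked 66. The treatment and the mouse are shared by all of these points, so these values describe the libraries and carry no test.

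Other genes of the neutrophil were counted by list, with the rises and falls over all genes given above as the background. Mpo and Ctsg, both of the primary granules, and the precursor gene Ms4a3 had no row in any table, and Elane had at most 3 counts in a TruSeq library. Of the primary granule and precursor list of 6 genes, none rose with limma-voom, edgeR or DESeq2, also at an unadjusted p under 0.05, and Cebpe, a transcription factor of granule formation, fell in TruSeq (8, 11 and 15 counts against 34, 43 and 31). Of 8 further granule genes, Cd177, a surface protein of neutrophil subsets, rose with each kit. In TruSeq it had 13, 26 and 15 counts against 0, 0 and 0 (limma-voom adjusted p 7.86e-05). Olfm4, Pglyrp1 and Chi3l3, named since they are the rest of the limma-voom rises, were called in TruSeq only. Lyz2, a lysozyme that Kupffer cells also make, fell there (270, 345 and 296 counts against 629, 466 and 387, limma-voom adjusted p 0.0232, or 0.0656 with TMM factors). Slpi did not pass with limma-voom (adjusted p 0.104 in TruSeq, 0.170 in V4 and 0.0912 in Pico). For this list edgeR and DESeq2 each called 5 rises in TruSeq, 2 in V4 and 1 in Pico. The difference between kits was not tested for these genes.

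Of the 24 genes of mature neutrophil surface and signalling, 11 of 22 rose in TruSeq, 5 of 20 in V4 and 4 of 20 in Pico, and Fcgr4 fell in TruSeq (limma-voom adjusted p 0.0481, or 0.0943 with TMM factors). The 3 most abundant of the list, Itgb2, Fcgr3 and Csf2rb, did not pass with limma-voom in any kit. In TruSeq their log2 fold changes were −0.10, 0.08 and 0.13, and Csf2rb came nearest in Pico (1.04, limma-voom adjusted p 0.0649). Retnlg, Il1r2 and Clec4d, named after their values were seen, rose with each kit. Clec4d did not pass with edgeR in Pico (adjusted p 0.0835) or V4 (0.0560) nor with DESeq2 in Pico (0.0776). Retnlg, a resistin-like gene of neutrophils, had 58, 81 and 61 counts in TruSeq against 3, 1 and 0. Il1r2, the decoy receptor for IL-1, had 29, 77 and 44 against 0, 0 and 0. Ly6g, the surface marker most used for mouse neutrophils, had a row in TruSeq only, with 0, 2 and 2 counts in the IL-1β mice and 0 in the saline mice, and it did not pass (limma-voom adjusted p 0.127). The 6 genes of the NADPH oxidase, the enzyme of the respiratory burst, gave 0 rises with limma-voom in each kit, with 1 gene at an unadjusted p under 0.05 in Pico and 0 in V4 and TruSeq, and edgeR and DESeq2 each called 1 rise in Pico. Cybb, its catalytic chain, which macrophages also transcribe, had 72, 93 and 75 counts in TruSeq against 153, 136 and 101. Its fall there (limma-voom adjusted p 0.0316) did not pass with TMM factors (0.0867), edgeR (0.0622) or DESeq2 (0.0834).

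The ligands that attract neutrophils were uneven between mice. Cxcl5 rose with each kit, with 71, 41 and 26 counts in TruSeq against 1, 0 and 0 (limma-voom adjusted p 0.000275). Cxcl1 did not pass with limma-voom or DESeq2 in any kit. With edgeR it passed in Pico (adjusted p 9.93e-06) and not in V4 (0.0724) or TruSeq (0.0599). It had 800, 214 and 175 counts in the IL-1β mice and 257, 65 and 163 in the saline mice in TruSeq, so only mouse I9579 was above all saline mice. Mouse I9579, the highest for Cxcl1 and Cxcl5 with each kit, was the lowest of the IL-1β mice in the summed neutrophil genes with each kit. Cxcl2 had at most 7 counts in a library, and Csf3, the gene for G-CSF, had 1, 0 and 0 counts in Pico and 3, 0 and 0 in V4 in the IL-1β mice, 0 in the saline mice, and no row in TruSeq.

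The vessel wall genes for leukocyte adhesion changed as well. Of 5 genes, 4 rose in TruSeq, 2 in V4 and 3 in Pico, and none fell. Icam1, a ligand of the Itgam integrin, had 715, 631 and 566 counts in TruSeq against 171, 159 and 162 (log2 fold change 1.99 ± 0.13, limma-voom adjusted p 7.48e-06). Vcam1 rose with each kit, and Selp, which starts rolling, rose in Pico and TruSeq with 95, 40 and 56 counts in TruSeq against 15, 19 and 12. Lcn2, Hp and Lrg1 are granule genes of neutrophils that hepatocytes also transcribe, and all 3 rose with each kit. Lcn2 had 44980, 48283 and 55197 counts in TruSeq against 54, 65 and 91. Mouse I9582, the highest for the summed neutrophil genes, was not the highest for Lcn2, Hp or Lrg1 in TruSeq.

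Markers of other cell types were counted in the same way. Over all genes, 4232 of 19424 fell in TruSeq, 1337 of 18051 in V4 and 1951 of 18108 in Pico. The 8 Kupffer cell markers gave 5 falls and a rise of Marco in TruSeq, 2 falls in V4 (4 with edgeR and with DESeq2) and 4 in Pico, and their summed level in TruSeq was 67.3 to 97.7 CPM in the IL-1β mice and 136 to 229 in the saline mice. Of 5 monocyte markers, Vcan rose in Pico and TruSeq, and Ms4a6c rose and Cx3cr1 fell in TruSeq (limma-voom adjusted p 0.0390, or 0.0624 with TMM factors), while Ccr2 and Ly6c2 did not pass. The monocyte sum was 6.29 to 11.98 CPM in the IL-1β mice and 4.61 to 6.95 in the saline mice in TruSeq, 6.65 to 9.12 against 1.54 to 4.83 in V4, and 13.1 to 18.04 against 5.08 to 8.57 in Pico. Its part in the rise of Itgam and S100a8 was not tested.

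The 12 T, B and NK cell markers gave 4 falls in TruSeq, 1 fall in V4 and 1 rise in Pico, with sums of at most 7.74 CPM in any library. The V4 fall, Cd79b, was not called by edgeR (adjusted p 0.285) or DESeq2 (0.245), and the Pico rise, Ncr1, was not called by edgeR (0.106) and had no adjusted p with DESeq2. None of 5 pan-leukocyte genes passed with limma-voom in any kit. In TruSeq 1 of them, Ptprc, was lower at an unadjusted p under 0.05. There edgeR called Coro1a as a rise (adjusted p 0.0415) and DESeq2 called 0. Lcp1, the most abundant of them, had 1395, 1566 and 1250 counts in TruSeq against 1777, 1597 and 1458. Ptprc, which encodes CD45, had 47, 86 and 45 counts in the IL-1β mice and 121, 91 and 81 in the saline mice in TruSeq (log2 fold change −0.72, limma-voom adjusted p 0.0641). None of the 5 red cell genes passed with limma-voom in any kit, with 2 at an unadjusted p under 0.05 in Pico and 1 in TruSeq, and edgeR called 1 fall in Pico and DESeq2 called 0. Their sum was 141 to 213 CPM in the IL-1β mice and 206 to 230 in the saline mice in TruSeq. Alas2, a heme synthesis gene, had 1453, 1307 and 1102 counts against 1434, 1609 and 1302. Hba-a2, an alpha globin, had 343, 143 and 344 against 428, 280 and 448. Mouse I9582, the highest for the summed neutrophil genes in TruSeq, was the lowest of all mice for this globin but not for Alas2. A link between red cell and neutrophil genes was not tested. Pf4, a platelet gene, rose in Pico and TruSeq, though not with edgeR in Pico (adjusted p 0.0727). The 3 basophil and mast cell markers had no row in Pico and were at most at 0.333 CPM in sum in the other kits. The 4 endothelial markers gave 3 falls in TruSeq, 1 in V4 and 2 in Pico. Kdr fell with each kit, while Cdh5 rose in Pico (285, 325 and 342 counts against 164, 227 and 199, limma-voom adjusted p 0.00534) and, with TMM factors, in TruSeq (0.0251). The 5 hepatocyte markers gave 2 falls in TruSeq, 2 in V4 and 4 in Pico, where Apob rose by a log2 fold change of 0.22 (limma-voom adjusted p 0.00103). Alb and Serpina1a fell with each kit by limma-voom. Over the 5 markers, edgeR and DESeq2 each called 0 falls in V4 and 2 in Pico. Serpina1a was not among those in Pico (adjusted p 0.188 with edgeR and 0.162 with DESeq2). With TMM factors the call of Serpina1a was lost in Pico (adjusted p 0.0576) and V4 (0.187), and with edgeR that of Alb in V4 (0.134).

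**Figure D5:**
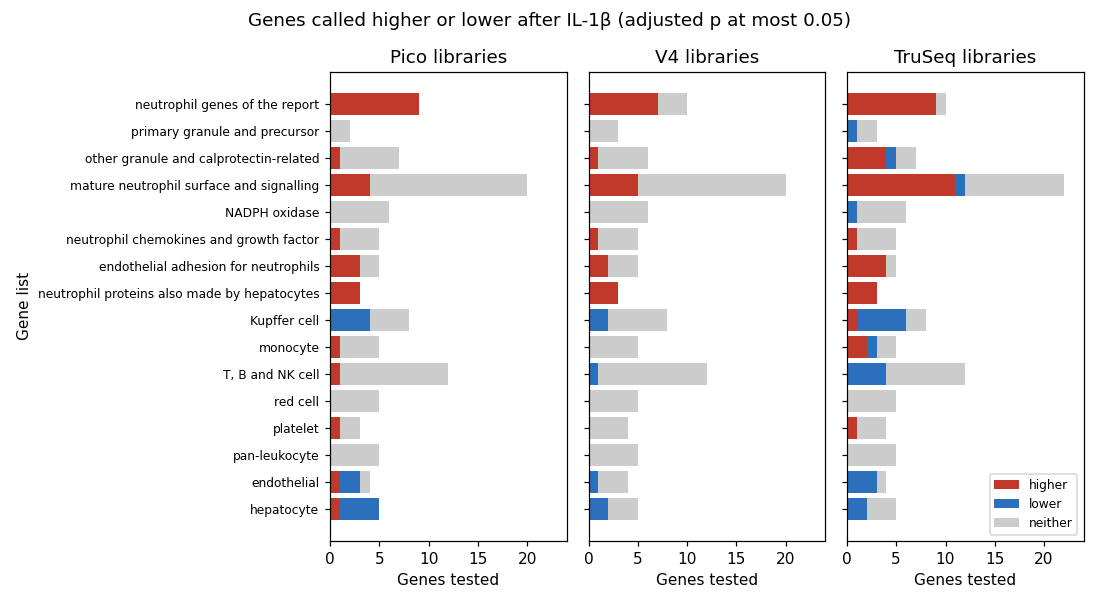
Number of genes of each list that rose (red), fell (blue) or did not pass (grey) after IL-1β at an adjusted p of at most 0.05 (limma-voom), with 1 panel per kit and the genes tested in the kit as the length of the bar. The 10 neutrophil genes are on top with 9, 7 and 9 rises in Pico, V4 and TruSeq, and the red cell and pan-leukocyte lists have no call in any panel.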

How the data were processed

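The authors aligned the reads to mm9 with GSNAP, removed ribosomal reads, brought the libraries of a kit to a like depth (PORT) and deposited counts of reads per gene, sense strand only for Pico and TruSeq and both strands for V4. The run behind the Pico table is not stated. The deposited counts were used as they are. The tables were normalized separately, so treatments were compared within a table, and kits by their fold changes.

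Each kit was fitted with limma-voom, the tool of the study's methods (limma 3.58.1, R 4.3.3), here with library totals and on every gene with a count in 1 or more of 6 libraries. The interaction of kit and treatment used 12 libraries. Alternatives were edgeR 4.0.16, DESeq2 1.42.0, TMM factors, a filter of 10 counts in 3 libraries, thinning to 4024632 counts (median of 5 draws), 1 fit of 18 libraries and leaving out each mouse. The fits were tested on simulated data. A group at 0 was set to a floor of 3 counts. The 95% intervals of folds from summed counts cover counting error only. A fold against the floor takes the IL-1β counts as exact and is not a lower limit. The p-values rest on 3 mice per group.

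Mouse numbers pair the libraries across kits, since the RNA of a mouse was split. Same-mouse correlations of deviations from the group means were 0.184 to 0.428 (Pico and TruSeq), 0.175 to 0.435 (V4 and TruSeq) and 0.0789 to 0.234 (Pico and V4).

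Values are given for all 10 genes and, of other lists, for some of the 3 most abundant of each, Cxcl1, Cxcl2, Csf3, Itgb2 and Ly6g. Any other gene was named after its values were seen. The genes and lists were chosen with earlier results of these data known. The summaries were made in Python 3.11.15 (pandas 2.3.3, numpy 2.4.6, scipy 1.17.1, matplotlib 3.10.9).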

Additional observations from a re-analysis of the deposited data

How the results depend on the processing

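All 335 values of a neutrophil gene, kit and alternative that had an adjusted p were above 0, so no direction turned among them. The number of neutrophil genes that rose was 8 with edgeR and 8 with DESeq2 in TruSeq, 5 and 6 in V4, and 8 and 8 in Pico. In V4 it fell from 7 to 4 with a filter of 10 counts in 3 libraries, which left 5 of the 10 genes, and to 4 at an adjusted p of at most 0.01. Leaving out each mouse in turn gave 7 to 10 in TruSeq, 4 to 6 in V4 and 6 to 8 in Pico. V4 held 4 without IL-1β mouse I9582, without saline mouse U9575 and without saline mouse U9576, a fit with fewer samples. All other alternatives for these counts stayed within 1.5 times. By CPM in place of counts, chosen after seeing the data, 9 in place of 8 TruSeq genes had no overlap, since Ltf met at 2 counts. For the response that differs between kits, 0 of the neutrophil genes passed in any pair with TMM factors, edgeR, DESeq2, the filter, the replicate block or any mouse left out, though DESeq2 gave no adjusted p for 8 of 9 genes for Pico and V4, and the paired fit with the replicate block changed no call, with a smallest adjusted p of 0.659 (Pico and TruSeq), 0.763 (V4 and TruSeq) and 0.738 (Pico and V4). Of 293 such differences in log2 fold change that had an adjusted p, 24 had the other sign, 0 of them past the threshold. With edgeR the value was −0.045 in place of 0.30 for Csf3r (Pico and TruSeq), 0.57 in place of −1.46 for Ngp (Pico and TruSeq), −0.61 in place of 0.04 for Cxcr2 (V4 and TruSeq), −0.55 in place of 0.68 for Itgam (Pico and V4) and 0.63 in place of −0.07 for Mmp8 (Pico and V4). With DESeq2 it was −0.0079 in place of 0.30 for Csf3r (Pico and TruSeq) and −0.53 in place of 0.04 for Cxcr2 (V4 and TruSeq). Values without an adjusted p are not among the 293. Among those, DESeq2 gave −1.01 in place of 0.68 for Itgam and −0.026 in place of 0.02 for Ltf (both Pico and V4). With the replicate block the value was −0.073 in place of 0.02 for Ltf (Pico and V4). With TMM factors it was −0.056 in place of 0.02 for Ltf (Pico and V4). With each mouse left out in turn, the differences that changed sign ran from −0.89 to 0.43 for S100a8 (Pico and TruSeq), −0.23 to 0.81 for Csf3r (Pico and TruSeq), −0.035 to 1.13 for Mmp8 (Pico and TruSeq), −0.73 to 0.99 for Cxcr2 (V4 and TruSeq), −0.083 to 2.26 for Camp (V4 and TruSeq), −0.69 to 0.59 for S100a8 (Pico and V4), −1.65 to 0.57 for Csf3r (Pico and V4), −0.20 to 1.39 for Itgam (Pico and V4), −0.67 to 0.60 for Ltf (Pico and V4) and −0.26 to 0.26 for Mmp8 (Pico and V4). Depth limits Camp and Ltf, with at most 5 and 14 counts in a library.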
